A study of Mus musculus with 8 samples.

Results

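The genes described here were 32 receptors, enzymes and transporters of monoamine and muscarinic signalling, chosen by name: 12 serotonin receptors, 5 dopamine receptors, 6 adrenergic receptors, 5 monoamine enzymes or transporters and 4 muscarinic acetylcholine receptors. All 32 were listed among the 54532 genes of the table of PTS + RS and RS, and all 32 among the 28229 genes of the table of RGFP109 and NaCl. RNA-seq was done on 8 libraries of brain from male C57BL/6 mice, taken on day 21. PTS is photothrombotic stroke, a cortical infarct made by light after a photosensitive dye, and RS is restraint stress. The PTS + RS group had both (2 libraries) and the RS group had restraint stress alone (2 libraries), and all 4 were labelled cortex. The other 4 libraries came from mice with stroke and restraint stress that were given RGFP109 (2 libraries) or NaCl (2 libraries). RGFP109, used in the paper as an HDAC3 inhibitor, is described there as selective for HDAC1 and HDAC3. It was given under the skin once a day at 60 mg/kg. The methods give 2 weeks, and a figure legend 21 consecutive days. The paper names DMSO, a cyclodextrin and sodium acetate as its carriers and calls the comparison group vehicle. Whether the NaCl mice got the same carriers is not stated. In both the RGFP109 and the NaCl group replicate 1 was labelled cortex and replicate 2 amygdala. The restraint stress was shared by all groups, so no unstressed mice enter any value. No source used here says whether a library held 1 mouse or a pool, so the p-values measure the spread between libraries.

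Serotonin, dopamine and noradrenaline are made by small groups of cells in the brainstem and midbrain, whose axons reach the forebrain, while the receptors are made by the target cells. Most of these receptors couple to G proteins: Gs and Golf raise cAMP, Gi lowers it and Gq acts through phospholipase C, whereas Htr3a is a subunit of a cation channel. In the forebrain, Drd1 and Drd2 are known for the 2 output pathways of the striatum, Chrm1 for pyramidal neurons, and Htr2c for the epithelium of the choroid plexus. Maoa and Maob break monoamines down, Ddc makes dopamine and serotonin from their precursors, Slc18a2 loads them into vesicles and Slc6a4 takes serotonin back up.

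Depth was 15902013 to 21712033 counts on genes per library. The tissue labels were compared with marker genes, and 3 groups of libraries stood apart from their labels. First, NaCl replicate 1, labelled cortex, held the summed FPKM (counts per kilobase of gene, scaled by 1 factor per library) of 8 olfactory bulb markers at 473, against 14.5 to 22.7 in the other 7 libraries, and all 8 markers were highest in it. Its 10 cerebral cortex markers summed to 72.4 FPKM, against 139 to 167 in the other cortex-labelled libraries, and did not move together. Neurod6 was at 5.36 FPKM in it against 50.7 to 81.4 there, whereas Cux2, Lamp5, Rasgrf2 and Foxp2 were above all of those libraries. Second, the pair of amygdala-labelled libraries held 9 striatal medium spiny neuron markers at 313 and 358 FPKM, against at most 104 in the others. All 9 were above every other library. Their 10 cerebral cortex markers summed to 206 and 196 FPKM. Of these, 6 were above every other library and 2 below all the cortex-labelled libraries other than NaCl replicate 1. Their 10 amygdala markers summed to 27.1 and 33.1 FPKM, against 25.6 to 30.2 in the cortex-labelled libraries other than NaCl replicate 1 (16.7). Of these 10, 3 (Tac2, Isl1 and Ecel1) were above every other library in the pair. Ecel1 was at 5.21 and 6.47 FPKM there, against at most 1.93 elsewhere. Another 1, Nts, was below all the cortex-labelled libraries other than NaCl replicate 1. Otp, which marks medial amygdala neurons, was at or below 0.0649 FPKM in all 8 libraries. Last, the PTS + RS and RS libraries and RGFP109 replicate 1, all labelled cortex, held 10 hippocampal markers at 105 to 163 FPKM, against 14.5 to 24.4 in the remaining 3. That list was written after the libraries were seen to stand apart. Among them C1ql2, made by dentate granule cells, was at 31.6 to 48.6 FPKM in those 5 libraries and at 0.253 to 1.62 in the others. Choroid plexus markers, summed over 10 genes, were at 1259 to 3139 FPKM in those libraries except PTS + RS replicate 2, which had 46.1. Markers of microglia rose with PTS + RS, with 10 of 10 called higher and sums of 623 and 701 FPKM against 136 and 144 in RS. Of the 10 astrocyte markers 4 were called higher there. The libraries are named below by their labels, and each result that rests on NaCl replicate 1 is given with and without it. The part that cell composition had in any difference was not tested, and fewer cells of a type and less RNA per cell cannot be told apart in bulk tissue.

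**Figure D1:**
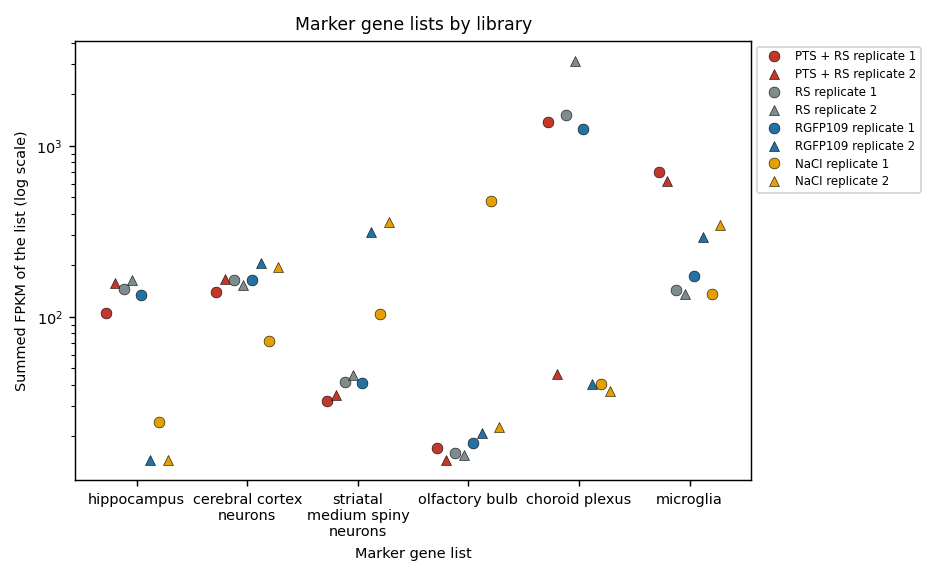
Summed FPKM of 6 marker gene lists (vertical axis, log scale) in each of the 8 libraries. Circles are replicate 1 and triangles replicate 2 of each group. NaCl replicate 1 stands at 473 FPKM for olfactory bulb, the amygdala-labelled libraries (RGFP109 and NaCl replicate 2) at 313 and 358 for striatal neurons, and PTS + RS replicate 2 at 46.1 for choroid plexus.

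The median levels of the 32 genes in PTS + RS and RS spanned 0.0135 to 37.3 FPKM, and muscarinic and adrenergic receptors headed the order. Over the 4 libraries of PTS + RS and RS, Chrm1, the main Gq-coupled muscarinic receptor of forebrain pyramidal cells, had a median of 37.3 FPKM (range 27.2 to 37.4). Adra1d, a Gq-coupled adrenergic receptor, followed at 34.1 FPKM (21.5 to 41.9), and the ranges of these first 2 overlapped. A gap lay below them, since the next gene, the Gi-coupled adrenergic receptor Adra2c, had 9.71 FPKM (7.45 to 13.1). Adrb1, Chrm3, Maob, Htr1a, Chrm4, Maoa, Htr2c and Adra2a came next, with medians from 9.27 down to 5.90 FPKM, and each overlapped its neighbour in the order. The ranges separated neighbours at 5 places in the whole order of 32: below Adra1d, below Adra2a, below Htr3a (4.65 FPKM), below Htr2a (2.68 FPKM) and below Htr1f (0.687 FPKM). The last 4 genes, Htr1d, Drd3, Drd4 and Slc6a4, had medians from 0.0722 down to 0.0135 FPKM.

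Slc6a4, the serotonin transporter of serotonin neurons, had 1 or 2 counts in each library of PTS + RS and RS. It had 15 counts in NaCl replicate 1, and 4, 1 and 1 in RGFP109 replicates 1 and 2 and NaCl replicate 2. Drd3, a Gi-coupled dopamine receptor, had 5 and 3 counts in PTS + RS and 0 in both RS libraries, and Drd4 had 0 in both PTS + RS libraries with 8 and 5 in RS. A count of 0 allows up to 3, and groups here had libraries at or below that, so no fold is given for these 3 genes. Htr1d, a presynaptic Gi-coupled serotonin receptor, had 10 and 5 counts in PTS + RS and 3 and 1 in RS.

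**Figure D2:**
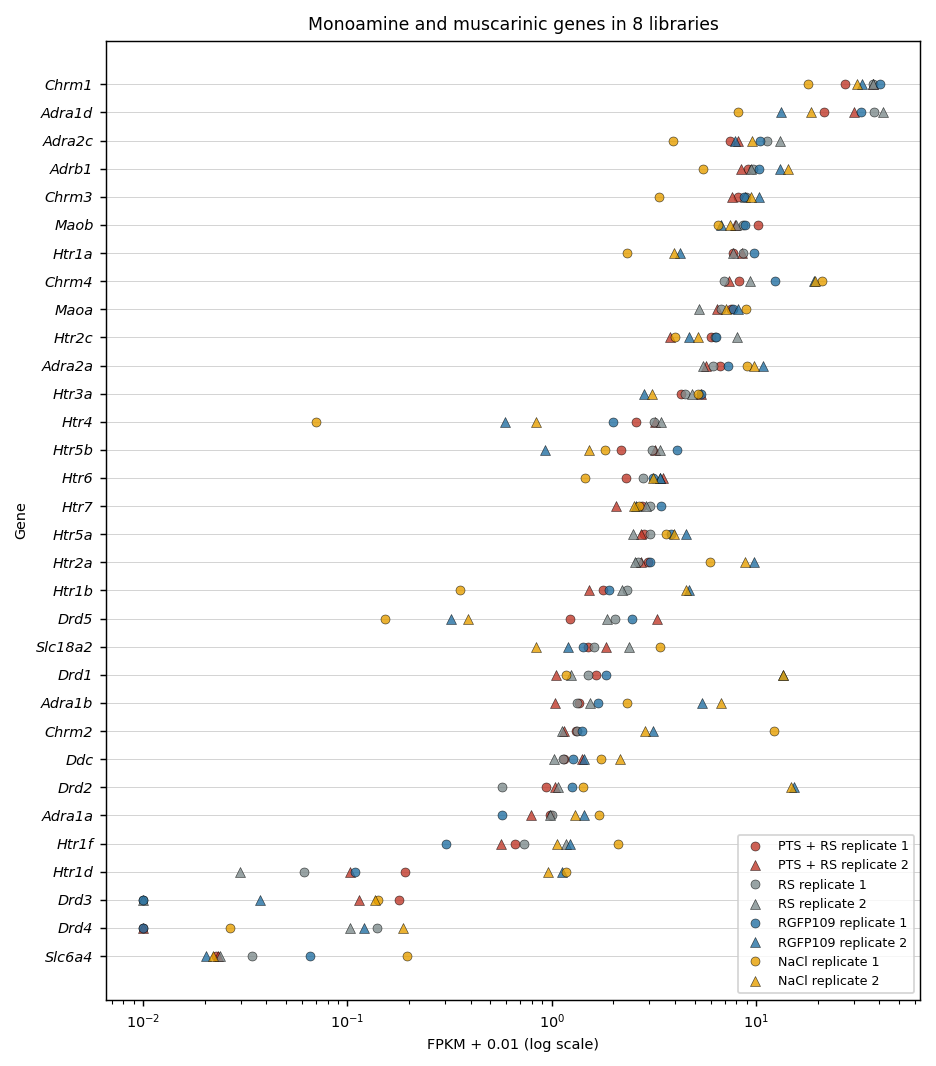
FPKM + 0.01 (horizontal axis, log scale) of the 32 genes in the 8 libraries, ordered by the median over the PTS + RS and RS libraries. Chrm1 and Adra1d head the order, Drd1 and Drd2 sit apart at 13.5 to 15.3 FPKM in the amygdala-labelled libraries (blue and orange triangles), and Htr4, Htr1b and Drd5 are lowest and Chrm2 highest in NaCl replicate 1 (orange circles).

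The comparison of PTS + RS with RS asked what the stroke added to restraint stress. Of the 28 genes with enough counts to be tested, 1 fell and none rose at an adjusted p under 0.05 (edgeR's quasi-likelihood test, Benjamini-Hochberg over all tested genes). Among all 17581 tested genes 0.586% were called lower and 2.96% higher. The members' count of 1 in 28 rests on a single gene, Adra2c (ENSMUSG00000045318), the alpha-2C receptor through which noradrenaline restrains release from nerve terminals and excitability in target cells. The 4 genes left out of the test were Htr1d, Drd3, Drd4 and Slc6a4, given above. At an unadjusted p under 0.05 (edgeR) there were 4 of 28 genes (Adra2c, Adra1d, Htr1b and Htr2c), beside 3139 of all 17581. All 4 had lower values in PTS + RS. The median log2 fold change of the 28 was -0.10, against -0.00153 over all tested genes, with 19 negative and 9 positive.

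Adra2c lies on GRCm38 chromosome 5 from position 35278319. Its level was 25.9 and 28.2 CPM (reads of the gene set to a common depth by TMM scaling) in the PTS + RS libraries and 39.0 and 45.2 CPM in RS. Both PTS + RS libraries were below both RS libraries, with means of 27.1 ± 1.65 and 42.1 ± 4.36 CPM (SD, n = 2 each). The log2 fold change was -0.64 (SE 0.115, adjusted p = 0.033, edgeR), and without RS replicate 2 it was -0.53 (adjusted p = 0.231) and no longer called. Without the choroid-poor PTS + RS replicate 2, which left replicate 1 alone in its group, it was -0.70.

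Of the other adrenergic receptors, Adra1d gave 41.3 and 57.7 CPM in PTS + RS and 72.4 and 79.9 CPM in RS, again without overlap. Its log2 fold change was -0.62 (SE 0.153, adjusted p = 0.084), which missed the threshold. It passed under DESeq2 (adjusted p = 0.00790), with the replicate block (adjusted p = 0.0117) and with no count filter. It missed with limma-voom (adjusted p = 0.0795) and, in edgeR, with other size factors (adjusted p = 0.0846). With a library left out the value ran from -0.89 to -0.40. Adra1a, Adra1b and Adrb1, receptors that raise Gq or Gs signalling, had log2 fold changes of -0.16, -0.25 and -0.12, and Adra2a had 0.09, none called. Adra1b, Adra1a and Adra2a overlapped between the groups, whereas Adrb1 had 23.0 and 21.0 CPM in PTS + RS against 24.2 and 23.5 in RS, a difference within 0.12 on the log2 scale.

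Among the serotonin receptors no gene was called, and 8 of the 11 tested had negative values. Htr1b, a Gi-coupled receptor on terminals, gave 8.46 and 7.18 CPM in PTS + RS and 11.0 and 10.4 in RS (log2 fold change -0.45, SE 0.172, adjusted p = 0.231). Htr1f, also Gi-coupled, gave 1.69 and 1.44 CPM against 1.88 and 3.03 (log2 fold change -0.64, SE 0.362, adjusted p = 0.412), a value like that of Adra2c with a larger error. Htr2c, the Gq-coupled receptor shared by neurons and choroid plexus, gave 56.4 and 35.5 CPM in PTS + RS and 59.2 and 75.2 in RS (log2 fold change -0.55, SE 0.213, adjusted p = 0.244). Its order over the 4 libraries was that of Ttr, the leading choroid plexus transcript, at 1182, 11.8, 1313 and 2745 FPKM. The part of choroid plexus in the Htr2c values was not tested. Without PTS + RS replicate 1, which left replicate 2 alone in its group, the Htr2c value was -0.92. Htr1a, Htr3a and Htr5a had log2 fold changes between -0.01 and 0.05. Htr4, Htr6 and Htr7, the Gs-coupled serotonin receptors, had -0.19, -0.09 and -0.30, and Htr5b had -0.26. Htr7 gave 2.74 and 2.05 FPKM in PTS + RS and 3.02 and 2.88 in RS, without overlap, whereas Htr6 gave 2.30 and 3.49 FPKM against 2.79 and 3.38. Htr2a, the Gq-coupled receptor of deep cortical layers, did not overlap between groups, at 16.8 and 15.4 CPM against 14.8 and 14.3, with a log2 fold change of 0.14 (adjusted p = 0.651).

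Dopamine receptors, enzymes and muscarinic receptors gave smaller differences. Drd1 gave 6.01 and 3.77 CPM in PTS + RS and 5.46 and 4.48 in RS (log2 fold change -0.02), and Drd2 gave 2.39 and 2.63 against 1.43 and 2.71 (0.29), neither called. Drd5, a Gs-coupled receptor found in hippocampus and cortex, spread from 3.85 to 10.3 CPM within PTS + RS alone. About 48.6% of the exonic bases of Drd5 are shared with another annotated gene, so its counts are uncertain. Maoa and Maob had log2 fold changes of 0.22 and 0.13, Ddc 0.25 and Slc18a2 -0.25, all with an SE of at least 0.152. The 4 muscarinic receptors all had values at or below 0, from -0.21 (Chrm1) to -0.00049 (Chrm2), and none was called. Chrm3, Gq-coupled like Chrm1, gave 51.1 and 48.1 CPM in PTS + RS and 56.0 and 55.1 in RS (-0.16, adjusted p = 0.374). Chrm1 gave 178 CPM in PTS + RS replicate 1 and 243 to 244 in the other 3 libraries. Its value thus rested on that library, and without PTS + RS replicate 2, which left that library alone in its group, the Chrm1 value was -0.45.

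Without overlap between the groups there were 2 genes higher (Htr2a and Ddc) and 9 lower among the 28 tested. The shares over all tested genes were 25.7% higher and 24.5% lower, and the counts were not tested against them. Some gaps were small: the nearest Htr4 values were 14.841 CPM in PTS + RS and 14.844 in RS.

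**Figure D3:**
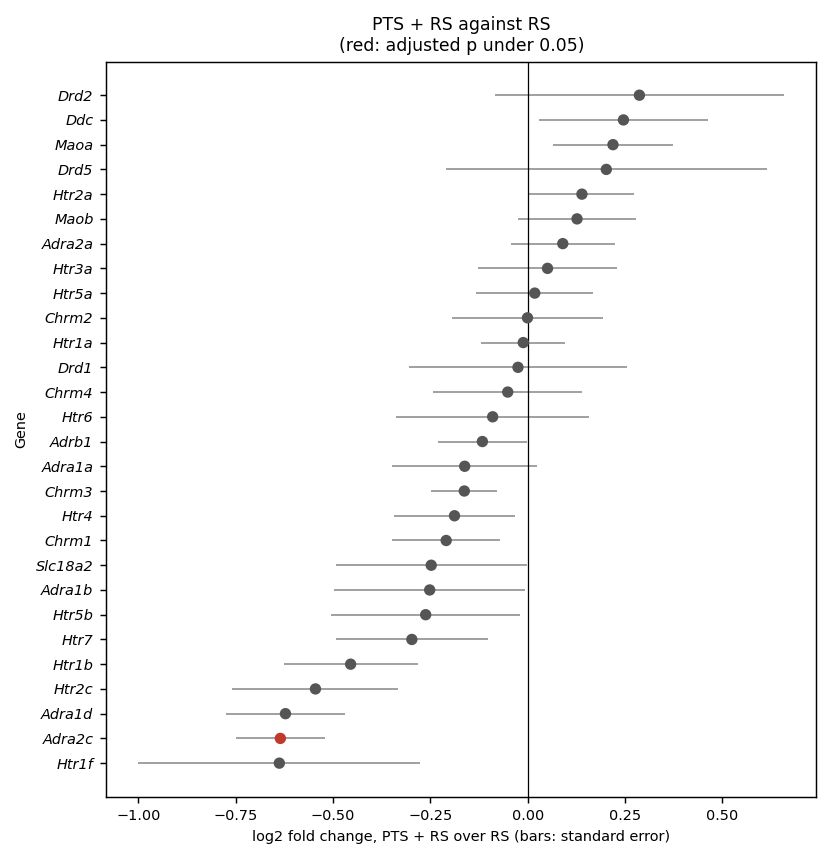
log2 fold change of PTS + RS over RS with its standard error (horizontal axis) for the 28 tested genes, from edgeR on 2 libraries a group. Adra2c, at -0.64, is the gene past the threshold (red), and Adra1d, Htr1f and Htr2c lie at -0.62, -0.64 and -0.55 with adjusted p above it.

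From the wider pathway, 50 other genes of synthesis, transport, breakdown, receptors and signalling had been listed by role, and 39 were tested in this comparison. Of them 2 fell and 0 rose, beside the 0.586% and 2.96% of all genes given above. An unadjusted p under 0.05 was reached by 12, beside 3139 of all 17581 genes. The numbers called moved when a single library was left out, and so did those over all genes. Gnas, which encodes the stimulatory G protein subunit used by Drd1, Drd5, Htr4, Htr6, Htr7 and Adrb1, gave 72.3 and 86.9 CPM in PTS + RS and 156 and 178 in RS (log2 fold change -1.07, SE 0.112, adjusted p = 0.00368, edgeR). About 22.0% of its exonic bases are shared with other gene models, so the count is uncertain. Ppp1r1b, the dopamine-regulated phosphatase inhibitor DARPP-32, gave 33.2 and 33.0 CPM against 47.4 and 66.3 (log2 fold change -0.78, SE 0.157, adjusted p = 0.0475). It was not called by limma-voom (adjusted p = 0.0641) or without RS replicate 2 (adjusted p = 0.186), and 15.7% of its exonic bases are shared with another gene model. Both groups were separate for both genes. Ppp1r1b is also on the striatal marker list, of which it was the 1 gene called in this comparison.

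The comparison of RGFP109 with NaCl asked what differed with the inhibitor in mice with stroke and stress. Of the 29 genes tested, none was called in either direction by edgeR, and 0.0% of all 17565 tested genes were. None of the 29 had an unadjusted p under 0.05, beside 206 of all 17565. DESeq2 called none at the adjusted threshold, with 3 under an unadjusted 0.05 beside 433 of all 17565. Limma-voom called none either. The median log2 fold change was 0.13 against -0.016 over all tested genes. The libraries of a group differed in labelled tissue and in markers, and the common biological coefficient of variation was 32.1%, against 11.4% in PTS + RS and RS. Without NaCl replicate 1 the count stayed at 0 of 30 tested genes.

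The genes without overlap between the groups were 3 higher and 2 lower of 29, against 12.8% and 13.8% of all tested genes. Htr1a, the Gi-coupled receptor of hippocampal pyramidal cells and of serotonin neurons themselves, gave 43.6 and 18.9 CPM with RGFP109 and 10.6 and 17.9 CPM with NaCl (log2 fold change 1.13, SE 0.492, adjusted p = 1). Ddc, the decarboxylase, gave 5.64 and 6.36 CPM with RGFP109 and 7.79 and 9.62 with NaCl (-0.54, SE 0.278, adjusted p = 1). Chrm1 gave 262 and 213 CPM against 117 and 202 (0.57, SE 0.316, adjusted p = 1). In Htr1a and Chrm1 the replicate 2 libraries (the second value of each pair) differed little, and the larger gap lay between the replicate 1 libraries.

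The values within each replicate number showed this for the whole list. Between the amygdala-labelled libraries, which were alike in their markers, the log2 ratio of RGFP109 over NaCl ran from -0.69 (Htr5b) to 0.51 (Slc18a2), with a median size of 0.145, and 0 of the 29 genes reached a size of 1. Between the cortex-labelled libraries, of which NaCl replicate 1 carried olfactory bulb markers, it ran from -3.15 (Htr1d) to 4.53 (Htr4), with a median size of 1.07, and 15 of 29 reached a size of 1. Over all tested genes the shares past a size of 1 were 2.87% and 15.4%. These ratios are of 1 library against 1 and have no test. In the amygdala-labelled pair, Drd1 gave 49.2 and 49.0 CPM, Drd2 39.0 and 37.6, Chrm4 27.5 and 27.9 and Htr1b 22.2 and 21.4 with RGFP109 and NaCl respectively. The log2 ratios of these 4 receptors in that pair were 0.01, 0.05, -0.02 and 0.05 in the same order.

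**Figure D4:**
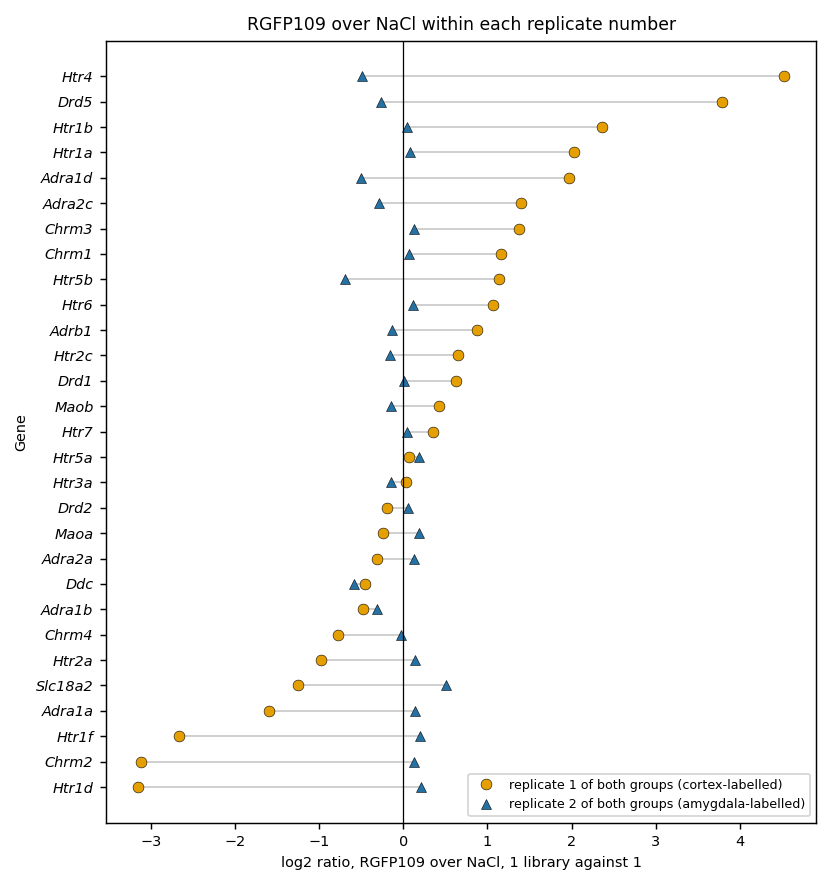
log2 ratio of RGFP109 over NaCl (horizontal axis), 1 library against 1, for the 29 tested genes. Orange circles compare the replicate 1 libraries and run from -3.15 to 4.53, whereas blue triangles compare the replicate 2 libraries and stay between -0.69 and 0.51.

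NaCl replicate 1 lay above the other 3 libraries of its table for 7 of the 29 tested genes and below them for 14. The same counts were not made over all tested genes, so they are not shown to be particular to this list. Chrm2, the Gi-coupled autoreceptor of cholinergic terminals, stood at 74.5 CPM in it, against 8.50 in RGFP109 replicate 1 and 18.9 and 17.3 in the amygdala-labelled pair. Slc18a2, the vesicular monoamine transporter, stood at 13.0 CPM against 3.15 to 5.39. Th, which is not one of the 32 and makes the precursor of dopamine, stood at 184 CPM against 0.444 to 2.77. Th is also made by periglomerular neurons of the olfactory bulb. The sum of 6 markers of monoaminergic cell bodies, Th among them, was 80.3 FPKM in this library and at most 1.64 in the other 7. That sum was almost all Th (76.8 FPKM) and Slc6a3, the dopamine transporter (3.17 FPKM). Tph2, at 0.117 FPKM, was lower there than in any other library, and Dbh, at 0.230, was within their range. Htr4, a Gs-coupled receptor, had 5 counts in it (0.284 CPM), against 9.20, 2.71 and 3.86 CPM in the others. Htr1b stood at 1.65 CPM against 9.01 to 22.2, and Drd5 at 0.455 against 0.981 to 7.80.

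The labels also allowed the amygdala-labelled libraries (replicate 2 of RGFP109 and NaCl) to be compared with the cortex-labelled ones of the same table (replicate 1), with treatment in the fit. With all 4 libraries none of the 29 tested genes was called by edgeR, nor was any of all 17565 (0.0%). An unadjusted p under 0.05 was reached by 7 members, beside 1607 of all 17565. DESeq2 called 4 members higher (Drd2, Drd1, Htr1b and Adra1b) and none lower, beside 156 higher and 53 lower of all genes. Limma-voom called none. Drd2 gave 39.0 and 37.6 CPM in the amygdala-labelled libraries and 3.17 and 3.64 in the cortex-labelled ones, a log2 fold change of 3.49 (SE 0.241, adjusted p = 0.183). Drd1 gave 49.2 and 49.0 CPM against 6.66 and 4.27, a log2 fold change of 3.20 (SE 0.271, adjusted p = 0.206). Htr1b gave 22.2 and 21.4 CPM against 9.01 and 1.65, a log2 fold change of 2.41 (SE 0.646, adjusted p = 0.446). About 18.0% of the exonic bases of Htr1b are shared with another gene model, so its counts are uncertain to that extent. The groups did not overlap for 9 of 29 genes that were higher and 4 that were lower, beside 21.6% and 22.4% of all tested genes.

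Drd2 (ENSMUSG00000032259) lies on chromosome 9 from position 49340627 and Drd1 (ENSMUSG00000021478) on chromosome 13 from position 54051183 (GRCm38). Drd1 and Drd2 mark the 2 classes of striatal output neurons, so their values are given beside a striatal marker. Adora2a, found in Drd2 neurons, stood at 14.7 and 16.2 FPKM in the amygdala-labelled libraries and at 0.636 to 2.37 in the other 6. Drd1 itself was at 13.6 and 13.5 FPKM against 1.03 to 1.83 in the other 6, and Drd2 at 15.3 and 14.7 against 0.560 to 1.41. The part of striatal tissue in these levels was not tested. FPKM of the 2 tables were scaled separately.

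Without NaCl replicate 1, the library with olfactory bulb markers, 17 of 30 tested genes were called, 11 higher and 6 lower in the amygdala-labelled pair. The shares over all 18613 genes were 8.27% higher and 5.51% lower. With 3 libraries the treatment term could not be kept, so the fit held the tissue label alone, and with all 4 libraries and no treatment term the count was 0. RGFP109 replicate 1 was then the lone cortex-labelled library, assumed to vary like the amygdala-labelled pair, which itself held 1 library of each treatment. That library also carried hippocampal and choroid plexus markers, so tissue label, dissection and treatment cannot be told apart in it. Without RGFP109 replicate 1 instead, 18 of 31 were called, 13 higher and 5 lower, beside 15.1% and 13.6% of 18744 genes. The genes called in that fit alone compare the pair with NaCl replicate 1. They were higher for Htr6 (7.90 and 7.29 CPM against 3.41), Adra2c (27.1 and 33.1 against 13.6), Adrb1 (32.5 and 35.6 against 13.9), Chrm1 (213 and 202 against 117) and Chrm3 (64.5 and 59.0 against 21.0), and lower for Slc18a2 (4.53 and 3.15 against 13.0) and Slc6a4 (1 and 1 counts against 15). Of the 11 genes called both times, 6 had the same direction (Htr1b, Htr2a, Drd1, Drd2 and Adra1b higher, Htr3a lower) and 5 took opposite ones (Htr1a, Htr1f, Htr4, Adra1d and Chrm2). Both fits share the amygdala-labelled pair, so the same direction is no independent support. Over all genes, 75.3% of the 1564 called both times had the same direction. Among the 30 of the 32 genes tested both times, 14 had log2 fold changes of opposite sign, beside 38.7% of all genes.

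The 6 genes with the same direction in both fits are described against each cortex-labelled library. Htr2a gave 54.9 and 49.8 CPM in the amygdala-labelled pair against 16.9 in RGFP109 replicate 1 and 33.6 in NaCl replicate 1, with log2 fold changes of 1.64 without NaCl replicate 1 (adjusted p = 8.66e-10, edgeR) and 0.65 without RGFP109 replicate 1. Adra1b, a Gq-coupled adrenergic receptor, gave 18.3 and 22.8 CPM against 5.64 and 7.91, with 1.87 (adjusted p = 3.06e-08) and 1.38. Htr3a, the channel subunit made by one class of interneurons, gave 5.84 and 6.47 CPM against 11.2 and 11.0, with -0.855 (adjusted p = 0.00891) and -0.83. Markers of interneurons from the caudal ganglionic eminence, VIP cells among them, did not move together. Their sum over 7 genes was 62.6 and 55.3 FPKM in the amygdala-labelled pair, 83.1 in RGFP109 replicate 1 and 243 in NaCl replicate 1. In the pair 4 of the 7 were below every cortex-labelled library other than NaCl replicate 1. Vip was above every other library, at 11.8 and 11.6 FPKM against 5.64 in RGFP109 replicate 1 and 6.79 in NaCl replicate 1. Calb2 alone made up 202 FPKM of the sum in NaCl replicate 1, where Prox1, Npas1 and Cnr1 were lowest. Whether interneuron content played a part in the Htr3a values was not tested. Drd2, Drd1 and Htr1b had log2 fold changes of 3.60, 2.89 and 1.29 without NaCl replicate 1.

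The region just before the start of transcription is shown for 4 of the receptors that were higher in the amygdala-labelled libraries than in both cortex-labelled ones. Sequences are from RefSeq on GRCm38.p6, which had an entry for 25 of the 32 genes, and each is the 250 bases before an annotated start, 5′ to 3′ on the gene's strand. Capitals mark a GC box, the letters GGGCGG or their reverse complement CCGCCC, searched on both strands. Neither the TATA box (TATAAA) nor the cAMP response element (TGACGTCA) was found in these 4 windows. The windows are chr9:49340153-49340402 on the plus strand (Drd2), chr13:54054781-54055030 on the minus strand (Drd1, the second of its 2 entries), chr9:81633833-81634082 on the minus strand (Htr1b) and chr11:43901238-43901487 on the minus strand (Adra1b, the first of 2). None of the 4 overlaps an exon in GENCODE M21. The Drd1 window lies inside the Drd1 gene, in an intron of a longer transcript.
Drd2: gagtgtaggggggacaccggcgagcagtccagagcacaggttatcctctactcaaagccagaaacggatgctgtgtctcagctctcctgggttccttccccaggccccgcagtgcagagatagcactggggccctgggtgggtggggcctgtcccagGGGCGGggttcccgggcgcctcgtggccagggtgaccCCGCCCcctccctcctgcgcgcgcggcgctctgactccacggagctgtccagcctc
Drd1: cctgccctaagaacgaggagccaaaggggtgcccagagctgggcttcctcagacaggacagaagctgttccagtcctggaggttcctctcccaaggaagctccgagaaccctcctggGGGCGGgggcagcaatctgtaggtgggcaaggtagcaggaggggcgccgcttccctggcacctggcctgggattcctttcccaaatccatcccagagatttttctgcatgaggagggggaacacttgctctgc
Htr1b: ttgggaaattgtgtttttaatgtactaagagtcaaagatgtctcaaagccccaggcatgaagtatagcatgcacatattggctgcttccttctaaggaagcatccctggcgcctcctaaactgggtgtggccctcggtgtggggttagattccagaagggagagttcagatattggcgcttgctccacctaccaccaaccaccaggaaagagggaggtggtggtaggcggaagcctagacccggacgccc
Adra1b: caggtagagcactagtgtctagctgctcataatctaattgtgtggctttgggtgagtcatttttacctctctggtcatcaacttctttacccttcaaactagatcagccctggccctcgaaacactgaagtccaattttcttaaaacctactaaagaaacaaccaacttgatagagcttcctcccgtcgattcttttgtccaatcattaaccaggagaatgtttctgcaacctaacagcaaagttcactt

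The Drd2 window held 2 GC boxes, the Drd1 window 1, and those of Htr1b and Adra1b none. The other entries differed from these, with no GC box for Drd1 and 1 for Adra1b. A GC box was in 17 of the 30 windows of the 25 genes with an entry and in 32.7% of all 32851 windows of this length. CpG dinucleotides numbered 15 in Drd2, 5 in Drd1 (15 in its other entry), 6 in Htr1b and 3 in Adra1b (22 in its other entry), beside a median of 6 over all windows. A match is a description of the letters and not of binding.

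The other genes called without NaCl replicate 1 compare the amygdala-labelled pair with RGFP109 replicate 1 alone. The higher ones were Htr1d (3.55 and 3.04 CPM against 0.317), Htr1f (3.13 and 2.72 against 0.761), Adra1a (12.4 and 11.3 against 4.88), Chrm2 (18.9 and 17.3 against 8.50), Chrm4 (27.5 and 27.9 against 17.8) and Adra2a (40.9 and 37.4 against 27.8). Chrm4, the Gi-coupled muscarinic receptor of Drd1 striatal neurons, had a log2 fold change of 0.65 (adjusted p = 0.00796, edgeR). The lower ones besides Htr3a were Drd5 (0.981 and 1.20 CPM against 7.80), Htr5b (1.78 and 2.94 against 7.93), Htr4 (2.71 and 3.86 against 9.20), Htr1a (18.9 and 17.9 against 43.6) and Adra1d (25.0 and 35.3 against 61.7). Maoa, at 34.0 and 29.8 CPM in the amygdala-labelled pair, was the gene nearest to no difference, with a log2 fold change of 0.01 (SE 0.164). None of the 4 enzymes and transporters tested was called.

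**Figure D5:**
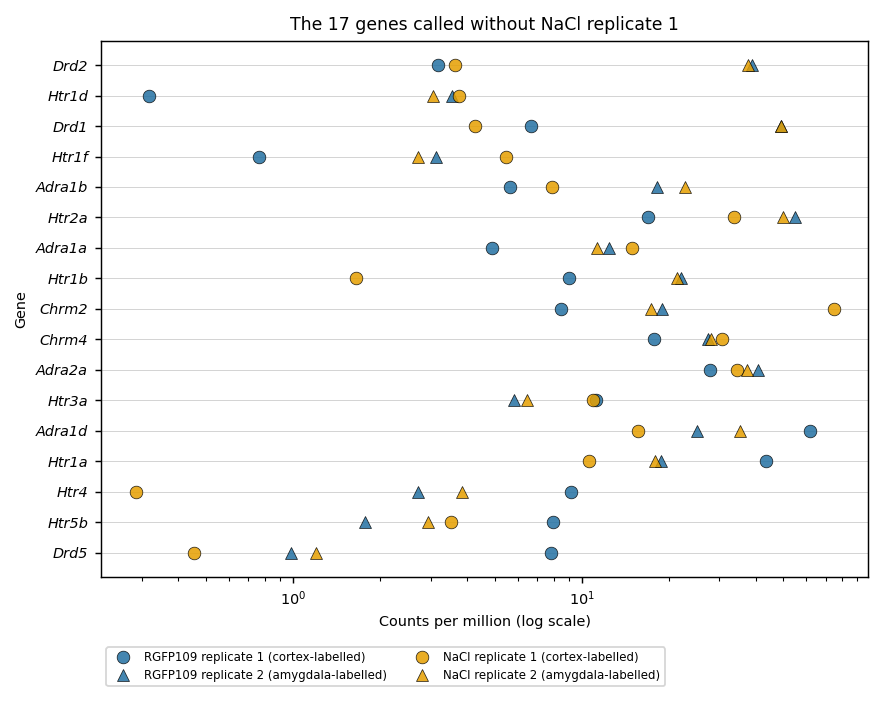
CPM (horizontal axis, log scale) of the 17 genes called between amygdala-labelled (triangles) and cortex-labelled (circles) libraries without NaCl replicate 1. For Drd2 and Drd1 both triangles lie at 37.6 to 49.2 CPM and both circles at 3.17 to 6.66, whereas NaCl replicate 1 (orange circle) lies on the far side of the triangles for Chrm2 (74.5) and Htr1f (5.46).

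Of the 50 other pathway genes, 43 were tested and none was called in this comparison with all 4 libraries. Of these 43, 15 had an unadjusted p under 0.05, beside 1607 of all 17565 genes, and DESeq2 called 9, beside 209. Without NaCl replicate 1, RGFP109 replicate 1 was the lone cortex-labelled library. The transporter Slc29a4 and the receptor Chrm5 were then lower in the amygdala-labelled pair (log2 fold changes -2.09 and -1.62), and more genes were higher. They included the cholinergic genes Chat, which makes acetylcholine, and Slc18a3, its vesicular transporter, and partners of dopamine signalling in the striatum: Ppp1r1b (298 and 387 CPM in the amygdala-labelled pair against 41.4 in RGFP109 replicate 1 and 31.3 in NaCl replicate 1), Rgs9 (97.4 and 110 CPM against 15.7 and 16.2), Pde10a, Adcy5 and Gnal. Chat had 3.55 and 5.76 CPM in the amygdala-labelled pair and 0.127 and 0 in the cortex-labelled libraries. For RGFP109 against NaCl 43 were tested and none was called. At an unadjusted p under 0.05 there was 1, beside 206 of all 17565 genes, and DESeq2 and limma-voom called none. Without NaCl replicate 2, which left NaCl replicate 1 alone in its group, the log2 fold change was -7.55 for Th. It was -6.58 for Slc6a3, the dopamine transporter, and 2.22 for Adcy1.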

How the data were processed

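Groups and tissues were taken from the sample labels. Per the submitters' notes and the methods, the authors aligned reads to GRCm38 with STAR 2.4.0 and counted reads per gene with HTSeq 0.6.1, and the deposited counts are not normalized. The deposited FPKM equal the count divided by gene length and 1 factor per library. Per-library columns of normalized signal (8) and the authors' fold changes and p-values, which hold their own tests, were not used. Genes passing filterByExpr were scaled by TMM and tested by edgeR 4.0.16's quasi-likelihood test (R 4.3.3), called at an adjusted p under 0.05. DESeq2 1.42.0, limma-voom 3.58.1, other size factors, no count filter, a replicate block and leaving out each library were alternatives, and the scripts were tested on simulated data. Ratios of single libraries used a prior count of 2. Figures were drawn with matplotlib 3.10.9.

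The 32 genes and all lists were chosen with earlier results of these data known. All 32 genes are described, with values per library for those called by the main test and, in each comparison, the 3 of largest change among those whose libraries do not overlap. Other pathway genes were named where called; those further named from the comparison without NaCl replicate 1, and the remaining values, were chosen after they were seen. Same-numbered libraries shared a number alone in PTS + RS and RS (correlation of their deviations 0.035). In RGFP109 and NaCl the number was also the labelled tissue (0.299). Exonic bases shared with other genes were counted in GENCODE M21 on either strand. The 2 libraries a group, rather than depth, set the precision, and whether counting used strand is not given in the sources used here. One gene of the striatal marker list is not reported here, and it was left out of the list's sums.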

Additional observations from a re-analysis of the deposited data

Results flagged for a closer look

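The ratio of RGFP109 over NaCl went in opposite directions in the pair of replicate 1 libraries and the pair of replicate 2 libraries, by at least 0.5 on the log2 scale each way, for 2 genes. Htr5b had log2 ratios of 1.14 in replicate 1 and -0.69 in replicate 2. Slc18a2 had -1.25 in replicate 1 and 0.51 in replicate 2. Each ratio is of 1 library against 1, so the difference between the pairs was not tested. NaCl replicate 1, which enters the first ratio of each gene, held olfactory bulb markers at 473 FPKM in sum, and the part of that in these ratios was not tested.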

How the results depend on the processing

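Adra2c kept its direction in all 9 alternatives and its call in all but the one without RS replicate 2. Of the 32 genes, 1 was called lower in PTS + RS, 2 with DESeq2 and 2 with the replicate block (Adra1d joined Adra2c), and 3 with no count filter (Htr2c as well, among 32 tested). Leaving out 1 library gave 0 to 3 lower and 0 to 1 higher (Drd5, without PTS + RS replicate 1). All tested genes called went from 624 to 1835 with no count filter and to between 371 and 2691 with a library left out. RGFP109 against NaCl called none of the 32 in any alternative, the replicate block included, and its median log2 fold change ran from -0.03 to 0.35. Between the tissue labels, 0 were called by edgeR, 4 higher by DESeq2 and 4 higher with no count filter, and leaving out a library gave 0 to 13 higher and 0 to 6 lower. The cause was not tested beyond the marker values given.

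Of the 17 genes named in the comparison of tissue labels, 9 turned direction under an alternative. With a library left out, the log2 fold change ran from -1.23 to 0.80 for Htr1a, -0.18 to 3.37 for Htr1d, -0.89 to 1.95 for Htr1f, -1.48 to 3.50 for Htr4, -2.83 to 1.25 for Drd5, -0.33 to 1.29 for Adra1a, -1.02 to 0.95 for Adra1d, -2.03 to 1.11 for Chrm2 and -0.14 to 0.65 for Chrm4. In each the ends were the values without RGFP109 replicate 1 and without NaCl replicate 1. Without the treatment term Htr1f was at -0.10 and Htr4 at -0.52, and limma-voom gave -0.26 for Htr4.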
